A study of Homo sapiens with 6 samples.

Results

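VCaP and its castration-resistant derivative VCaP-CR were compared with 2 other prostate cancer lineages, LNCaP with LNCaP-abl and LAPC4 with LAPC4-CR, in 6 RNA-seq libraries with 1 library per cell line. The 2 VCaP libraries were chosen by their cell line label and set against the other 4. LNCaP and LAPC4 were labelled castration sensitive and grown in RPMI with 10% fetal bovine serum, while VCaP, also labelled sensitive, was grown in DMEM with 10% serum. LNCaP-abl, VCaP-CR and LAPC4-CR were labelled castration resistant and were all grown in RPMI with 10% charcoal-stripped serum and B27, so the medium was matched among the resistant lines and not among the sensitive lines. No other treatment was given. A difference of VCaP from the other sensitive lines cannot be told apart from a difference between the media, and a resistant line and its parent are not independent samples of a lineage. Each line is a single established culture, so the p-values measure only the spread among these 6 libraries.

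Androgens switch on genes such as the kallikreins of prostate secretion. Castration therapy removes the hormone, and resistant tumours often keep part of this programme on. The VCaP line came from a vertebral metastasis and is known for a fusion that places the ETS transcription factor ERG under the androgen-driven promoter of TMPRSS2. LNCaP came from a lymph node metastasis and is known for a rearranged ETV1, and LAPC4 was established from a xenograft. Charcoal stripping removes steroids from serum.

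The deposited tables held 51698 genes, of which 19959 were protein-coding, and the library totals ran from 8661337 to 22433655 counts. The protein-coding share of the counts was 62.8% in VCaP and 68.0% in its derivative, against 67.8% to 79.5% in the others. Levels are given as scaled FPKM, the deposited fragment count per length and depth (FPKM) brought to a common median over 8682 genes. Protein-coding genes averaging 1 scaled FPKM or more over the 6 libraries, 11337 in all, were tested with edgeR's quasi-likelihood test, with the castration state as a covariate and Benjamini-Hochberg adjustment over all of them. Epithelial and prostate markers were present in both VCaP libraries. KRT8 stood at 16.5 and 14.0 scaled FPKM, below the 22.5 to 88.5 of the others, and KRT18 at 24.3 and 18.5 against 22.1 to 69.9. FOXA1, a pioneer factor of prostate epithelium, stood at 115.4 and 115.8 against 68.9 to 136. Of 16 blood and endothelial markers none reached the expression filter, and their summed level was 5.46 and 5.11 scaled FPKM in the VCaP libraries and 5.13 to 8.73 in the others. In bulk RNA, fewer cells of a kind and less RNA per cell cannot be told apart.

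In the VCaP lineage 220 genes were higher and 67 were lower than in the other lineages at an adjusted p under 5%, which is 1.94% and 0.591% of the genes tested. The fitted log2 differences ran from 1.37 to 9.03 with a median of 3.67 among the higher genes. Among the lower genes they ran from -1.49 to -7.98 with a median of -3.00. The genes that passed were mostly near silent on the low side: the median level of the higher genes was 11.1 scaled FPKM in the VCaP lineage and 0.580 elsewhere, and the median of the lower genes was 1.05 against 14.1. No gene that passed had differences of opposite sign in the sensitive and resistant libraries. Leaving out VCaP or VCaP-CR left 0 genes past the threshold in either direction with edgeR, since 1 VCaP library then stood against the others, and leaving out 1 of the other libraries left 74 to 128 higher and 19 to 30 lower.

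Line identity was also described without a test, as genes for which the VCaP library was at least 2-fold above both other lines, or below both, on log2(scaled FPKM + 1), in the sensitive libraries and again in the resistant ones. The VCaP lineage kept 401 such genes higher (3.54% of those tested) and 195 lower (1.72%), against 121 and 80 for the LNCaP lineage and 231 and 141 for the LAPC4 lineage. Without the rescaling, on FPKM as deposited, the counts were 246 higher and 467 lower, since the median gene then moved from -0.02 to -0.34. Of the 652 genes that were 2-fold higher in sensitive VCaP, 61.5% were also 2-fold higher in VCaP-CR, and of the 420 that were lower 46.4% remained so. Both VCaP libraries were above all 4 others for 2056 genes (18.1% of those tested) and below all 4 for 2087 (18.4%). All but 5 of the genes that passed the test kept this identity; the 5 were HSPG2, MYBPC1, AGMAT and CHGB on the higher side and ITGA5 on the lower side, named here after their values were seen. Just inside the 2-fold limit lay MANEAL, at 10.3 and 19.4 in the VCaP libraries and at most 4.63 elsewhere, and just outside it HPRT1, at 33.5 and 33.3 against 10.4 to 16.3.

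**Figure D1:**
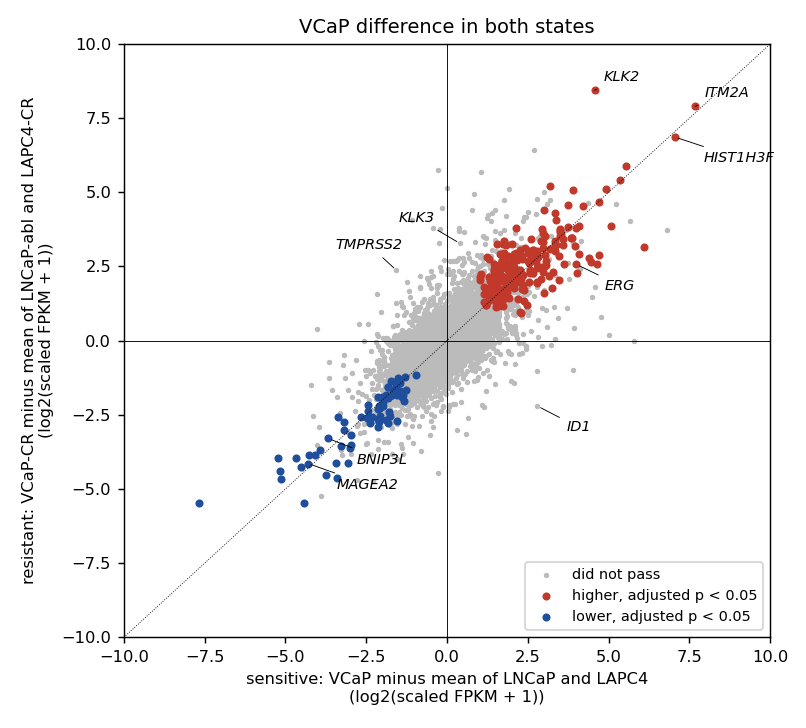
Each point is 1 of the 11337 tested genes, with the difference of VCaP from the mean of LNCaP and LAPC4 on the x axis and of VCaP-CR from the mean of LNCaP-abl and LAPC4-CR on the y axis, in log2(scaled FPKM + 1); the 220 red and 67 blue points passed the edgeR test and lie at the upper right and the lower left, while ID1 lies at the lower right and TMPRSS2 at the upper left.

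The ETS factors are the family of the fusion partner ERG. ERG (chr21:38673819-38955574 in hg18, the build named in the submitters' processing notes) reached 17.7 scaled FPKM in the parental line and 5.71 in its derivative, with values of 0.179 in LNCaP, 0.0800 in LNCaP-abl, 0.164 in LAPC4 and 0.176 in LAPC4-CR. Both VCaP libraries lay far above the other 4, and the log2 difference was 6.08 ± 0.48 (SE; edgeR adjusted p = 0.010). ERG was the only 1 of 17 tested ETS genes that passed, and the median of the 17 was -0.35 against -0.02 over all genes. ERG itself reached the expression filter through the VCaP libraries alone. ETV1, the rearranged ETS gene of LNCaP, stood at 16.9 in LNCaP and at no more than 0.309 in the other 5 libraries, LNCaP-abl included.

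Genes reported to go with ERG fusions in prostate tumours were counted as a list. Of its 15 tested members 3 were higher and none lower, against 1.94% and 0.591% of all tested genes. The median difference was 1.24 (2.09 in the sensitive and 0.82 in the resistant libraries). Another 10 members did not reach the expression filter. TDRD1, PLA1A and ARHGDIB reached it through the VCaP libraries alone, so the count and the median partly follow from the filter. The difference was above 0 in 13 tested members and below 0 in 2, with PTPRR lowest at -2.21. TDRD1, a tudor-domain protein of the germline, stood at 45.9 and 53.7 in VCaP and VCaP-CR and between 0.290 and 0.959 in the other 4 libraries. PLA1A, a phospholipase, stood at 29.2 and 6.72 against 0.218 to 0.499. ARHGDIB, a regulator of small GTPases otherwise found mostly in blood cells, stood at 32.7 and 7.31 against 0.345 to 0.457. The 3 passed at adjusted p = 0.010, 0.011 and 0.014. PLA1A and ARHGDIB were lower in VCaP-CR than in VCaP, as ERG was, and TDRD1 was not. CRISP3, another member, was not particular to the lineage: it stood at 539 in VCaP and 377 in LAPC4, with 19.8 and 8.86 in their resistant derivatives (adjusted p = 0.57).

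Factors that shape the prostate epithelial programme overlapped between the lineages. FOXA1 stood between 68.9 and 136 in the 6 libraries (adjusted p = 0.72), HOXB13 at 45.6 and 37.1 in the VCaP libraries against 1.52 to 62.2 (0.97), and GATA2 at 22.3 and 20.2 against 8.78 to 29.2 (0.53).

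Of 26 tested androgen-responsive genes 3 passed as higher and none as lower, against 1.94% of all genes, and 10 kept the 2-fold identity as higher, against 3.54%. In 14 of the 26 both VCaP libraries were above all 4 others, and in none were both below, against 18.1% and 18.4% of all genes. The median difference was 2.12, with 0.80 in the sensitive and 2.60 in the resistant libraries, where the medium was the same for all 3 lines. Another 4 members did not reach the expression filter. SPOCK1 reached it through the VCaP libraries alone, and TRPM8 averaged 1.23 scaled FPKM in the other 4 libraries, near the limit. The counts and the median therefore partly follow from the filter. KLK2, a kallikrein protease of seminal fluid, stood at 1310.4 and 656 in the VCaP libraries, at 60.2 and 49.2 in LNCaP and LAPC4, and at 0.613 and 1.22 in LNCaP-abl and LAPC4-CR. Its log2 difference was 7.73 ± 1.27 (adjusted p = 0.044), and it did not pass without the state covariate (0.12) or against the LNCaP lineage alone (0.056). TRPM8, a cold-sensing ion channel of prostate epithelium, stood at 27.9 and 3.78 against 0.273 to 2.49 (0.013). SPOCK1, a matrix proteoglycan, stood at 30.2 and 8.99 against 0.216 to 0.700 (0.020).

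Other well known androgen-responsive genes did not pass, although several were high in both VCaP libraries. KLK3, which codes for prostate-specific antigen, stood at 342 and 20.0 in VCaP and VCaP-CR. LNCaP held 621 and LAPC4 108, and their derivatives held 0.614 and 1.91, so VCaP-CR was the highest of the resistant libraries and VCaP was not the highest of the sensitive ones. ACPP, prostatic acid phosphatase, stood at 526 and 189 against 2.38 to 59.6 (0.14). NDRG1, a stress- and androgen-induced gene, stood at 82.1 and 75.2 against 2.25 to 14.2 (0.075), and PMEPA1, which restrains TGF-beta signalling, at 177 and 77.7 against 0.342 to 18.7 (0.096). TMPRSS2 stood at 14.8 in VCaP, below LNCaP at 37.0 and LAPC4 at 56.7, and at 19.9 in VCaP-CR, above LNCaP-abl at 9.21 and LAPC4-CR at 0.605.

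Among the enzymes that make and clear steroids, 3 of 17 tested genes were higher and 1 lower, against 1.94% and 0.591% of all tested genes, with a median difference of 0.01. AKR1C3, which converts androstenedione to testosterone, stood at 20.0 and 11.5 in the VCaP libraries and at 0.177 to 0.635 in the others (adjusted p = 0.021). SULT1E1, an estrogen sulfotransferase, stood at 5.84 and 4.07 against 0.208 to 0.938 (0.038). HSD17B6, an oxidising hydroxysteroid dehydrogenase, stood at 10.7 and 3.18 against 0.739 to 1.21 (0.049), and did not pass with limma (0.054) or with all gene classes in the fit (0.052). AKR1C3, SULT1E1 and HSD17B6 reached the expression filter through the VCaP libraries alone, so the count of higher genes partly follows from the filter. Another 15 members did not reach it. SRD5A3, a member of the 5-alpha reductase family, stood at 1.523 and 1.503 against 8.08 to 11.3 (0.019). UGT2B15 and UGT2B17, which conjugate androgens, were highest in LNCaP-abl: UGT2B17 stood at 432 there, at 8.85 and 2.42 in the VCaP libraries and at 1.08 to 10.9 in the other 3 (adjusted p = 0.78). These 2 genes are near-identical copies, and their split in the counting is uncertain.

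**Figure D2:**
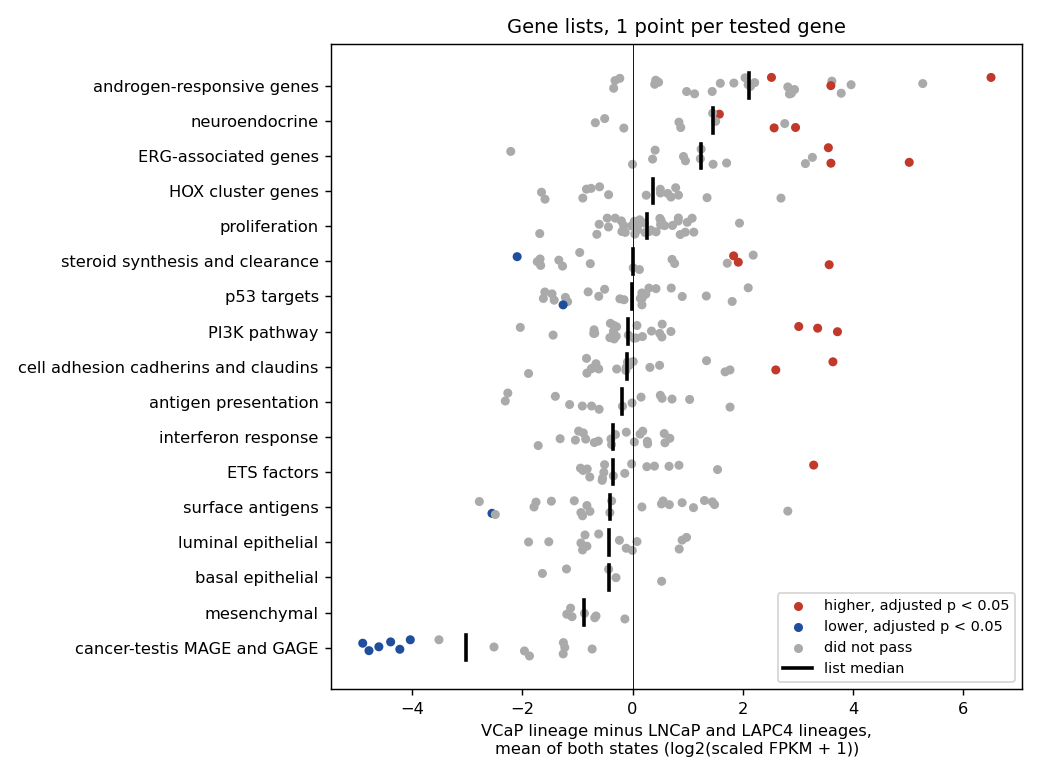
Each row is a gene list and each point a tested gene, placed by its mean VCaP difference over both states in log2(scaled FPKM + 1), with the list median as a black bar; among the lists shown, which have at least 5 tested genes, androgen-responsive genes have the highest median (2.12) and the cancer-testis genes the lowest (-3.01).

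Cancer-testis antigens, germline genes of the X chromosome that many tumours switch on, were the list with most genes lower. Of 14 tested members 6 were lower and none higher, against 0.591% of all genes, and the median difference was -3.01. Another 15 members did not reach the expression filter. The list summed to 7.06 and 11.5 scaled FPKM in VCaP and VCaP-CR, so members reached the filter mostly through the other lineages. Their direction therefore partly follows from the filter. In 9 of the 14 both VCaP libraries were below all 4 others, against 18.4% of all genes. MAGEA6 stood at 0.401 and 1.33 in the VCaP libraries and at 47.5 to 57.5 in the other 4. MAGEA12 stood at 0.165 and 0.302 against 20.4 to 28.8. MAGEA2 had 2 counts in each VCaP library and stood at 12.4 to 25.3 elsewhere, so that its fitted log2 difference of -7.98 depends on the prior count. MAGEA1 stood at 0.0625 and 0.496 against 4.51 to 48.6 and MAGEA3 at 0.0963 and 1.97 against 40.2 to 50.3. PRAME, on chromosome 22 and not in the MAGE family, stood at 0.396 and 0.880 against 21.6 to 109 (adjusted p = 0.048). MAGEA10 stood near 0 in the LAPC4 lineage as well, at 0.538 and 0.476, with 28.0 and 31.4 in the LNCaP lineage (0.31).

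The MAGEA genes are near-identical copies, so reads can be shared among them and the values of single members are uncertain. The bases before their starts are shown because these members were low together; they come from RefSeq promoters on GRCh38.p14, are 120 bases long, run 5' to 3' on the strand of the gene, and carry in capitals the 2 ETS core motifs searched on both strands, GGAAGT and CCGGAA, which do not overlap here. The windows are chrX:152753885-152754004 (minus strand) for MAGEA2, chrX:152733637-152733756 (plus) for MAGEA12, chrX:152698674-152698793 (plus) for MAGEA3 and chrX:152769690-152769809 (minus) for MAGEA6.
MAGEA2: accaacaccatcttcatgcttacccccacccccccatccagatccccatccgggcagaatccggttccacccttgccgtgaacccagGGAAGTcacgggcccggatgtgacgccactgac
MAGEA12: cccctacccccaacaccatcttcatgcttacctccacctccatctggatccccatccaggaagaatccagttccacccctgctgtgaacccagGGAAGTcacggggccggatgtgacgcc
MAGEA3: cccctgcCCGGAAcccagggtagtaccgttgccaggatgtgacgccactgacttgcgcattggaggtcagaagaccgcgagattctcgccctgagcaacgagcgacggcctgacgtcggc
MAGEA6: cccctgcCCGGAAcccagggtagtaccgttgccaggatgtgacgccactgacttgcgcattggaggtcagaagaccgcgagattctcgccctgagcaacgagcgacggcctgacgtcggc
The windows of MAGEA3 and MAGEA6 were the same at all 120 bases. Each of the 4 held 1 motif, GGAAGT in MAGEA2 and MAGEA12 and CCGGAA in MAGEA3 and MAGEA6. Of the promoters of all tested genes 27.4% held at least 1 of these motifs in a window of this length, so a match is common, and it is not a measured site.

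Promoters of the identity genes were matched less fully. RefSeq promoters of 300 bases were found for 82.7% of the 11337 tested genes and for 82.1% of the 195 identity genes that were lower. For the 401 that were higher they were found for 75.3%, under the 80% needed, so the comparison is void for them. Among the lower genes 28.1% of promoters held GGAAGT and 31.9% CCGGAA, against 28.3% and 31.5% of all. The bases before the first listed start of the 3 ERG-associated genes that passed are shown in the same way, from chr10:114179167-114179286 (plus) for TDRD1, chr3:119597765-119597884 (plus) for PLA1A and chr12:14948897-14949016 (minus) for ARHGDIB in GRCh38.p14.
TDRD1: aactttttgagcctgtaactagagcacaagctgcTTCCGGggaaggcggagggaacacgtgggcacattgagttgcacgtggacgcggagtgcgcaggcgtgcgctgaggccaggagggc
PLA1A: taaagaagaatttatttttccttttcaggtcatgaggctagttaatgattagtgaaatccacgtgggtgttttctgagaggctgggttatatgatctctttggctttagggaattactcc
ARHGDIB: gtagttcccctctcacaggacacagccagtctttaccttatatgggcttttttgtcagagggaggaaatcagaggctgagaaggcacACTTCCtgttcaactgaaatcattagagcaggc
In these 120 bases TDRD1 held 1 motif, the reverse complement of CCGGAA, ARHGDIB held 1, the reverse complement of GGAAGT, and PLA1A held none, which says only that these letters are not in this window. The window of ERG itself held none either, and its sequence is not shown.

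The 12 higher genes with the smallest p that also kept identity were PM20D2, HIST1H3F, ITM2A, ALDH1A1, PKP1, DNAJA4, ACSL5, SI, INA, ADAMTS3, TDRD1 and ERG. ITM2A (chrX:78502537-78509820, hg18), a type II membrane protein, reached 340 and 422 scaled FPKM in the VCaP libraries and stayed at 0.446 to 1.17 in the others, a log2 difference of 9.03 ± 0.50 (adjusted p = 0.0060). PM20D2, a peptidase of the M20 family, stood at 38.8 and 36.1 against 0.421 to 0.574 (0.0048). HIST1H3F, a replication-dependent histone H3 gene, stood at 495 and 304 against 1.37 to 4.01. ALDH1A1, a retinaldehyde dehydrogenase, stood at 62.4 and 50.3 against 0.140 to 0.617. ACSL5, which activates long-chain fatty acids, stood at 63.8 and 84.0 against 0.229 to 0.593. SI, the sucrase-isomaltase of the intestinal brush border, stood at 19.8 and 29.2 against 0.267 to 0.555. In each of the 12 both VCaP libraries lay above all 4 others. The rule for naming them required VCaP to be the higher within the sensitive and within the resistant libraries, so this is a description.

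The 12 lower genes with the smallest p were BNIP3L, MAGEA12, MAGEA2, MAGEA6, USP10, PPP2R2A, HSPB1, VAMP8, ELMO3, MAGEA2B, BLVRB and TNFRSF1A. BNIP3L, a mitophagy receptor, had 14 and 16 counts in VCaP and VCaP-CR, or 0.347 and 0.242 scaled FPKM, and stood at 10.6 to 17.9 elsewhere, a log2 difference of -5.54 ± 0.36 (adjusted p = 0.0084). PPP2R2A, a regulatory subunit of protein phosphatase 2A, lies beside it on chromosome 8 and stood at 0.380 and 0.389 against 8.23 to 13.6. The tested genes on either side of the pair were not near 0: CDCA2 stood at 13.2 and 13.6 in the VCaP libraries and DPYSL2 at 3.77 and 3.91. USP10, a deubiquitinase on chromosome 16, had 9 and 10 counts and stood at 0.285 and 0.193 against 10.3 to 16.5, with its neighbours KLHL36 at 3.65 and 3.55 and ZDHHC7 at 2.13 and 1.60 in the VCaP libraries. HSPB1, a small heat shock protein, stood at 0.784 and 0.997 against 36.7 to 124. TNFRSF1A, the main TNF receptor, stood at 0.453 and 0.342 against 4.78 to 8.07, and HIST1H1B, a linker histone picked here after its values were seen, at 2.03 and 3.55 against 89.7 to 671.

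**Figure D3:**
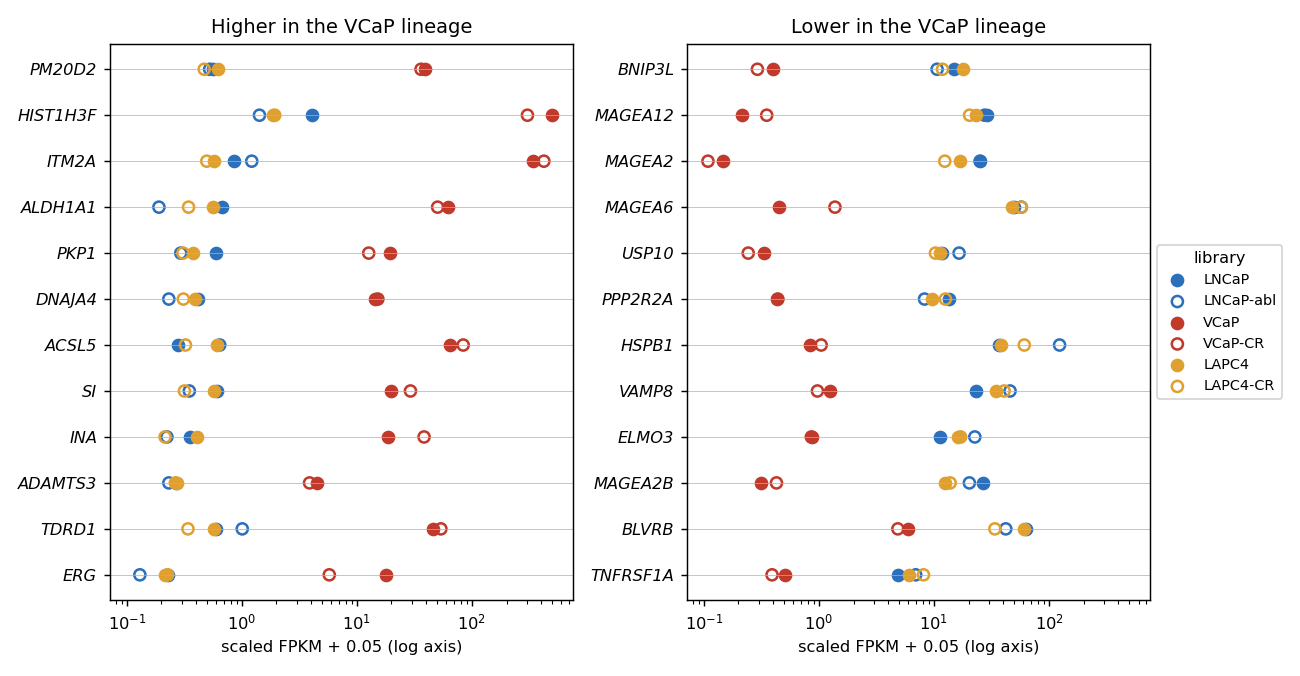
Scaled FPKM plus 0.05, on a log axis, of the 12 higher and 12 lower genes with the smallest p that kept identity, with 1 point per library, filled for sensitive and open for resistant lines; red VCaP points lie right of all others on the left panel and left of all others on the right panel, with HIST1H3F at 495 and 304 and MAGEA6 at 0.401 and 1.33.

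Of 25 tested genes of PI3K growth factor signalling 3 were higher and none lower, against 1.94% and 0.591% of all tested genes, with a list median of -0.07, and 2 of the 3 are described. IGF1R, the insulin-like growth factor receptor, stood at 26.2 and 35.7 in the VCaP libraries and at 0.591 to 1.98 in the others (adjusted p = 0.017). IRS2, its adaptor, stood at 9.16 and 12.4 against 0.229 to 0.864 (0.015). IRS2 reached the expression filter through the VCaP libraries alone, so the count of higher genes partly follows from the filter. Of 23 tested surface antigens none was higher and 1 lower, against the same shares: ERBB2, the HER2 receptor, stood at 2.33 and 3.61 against 14.7 to 29.6 (0.015). Its partner ERBB3 stood at 2.65 and 3.29 against 14.0 to 59.4 and did not pass (0.084).

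Neuroendocrine genes, which mark secretory granules of hormone-producing cells, were higher in 3 of 11 tested and lower in none. The shares over all tested genes were 1.94% and 0.591%, and the median difference of the list was 1.45. Another 13 members did not reach the expression filter, and SCG3, VGF and CHGB reached it through the VCaP libraries alone. SCG3, a granin, stood at 4.90 in the parental line, 16.7 in its derivative and 0.233 to 0.497 in the others (adjusted p = 0.020). VGF, a secreted neuropeptide precursor, stood at 5.10 and 13.5 against 0.310 to 0.828 (0.040), and CHGB at 1.79 and 4.71 against 0.286 to 0.461 (0.047). CHGA, chromogranin A, stood at 2.48 and 22.6 against 0.206 to 0.473 and missed the threshold (0.064). All 3 genes that passed were higher in VCaP-CR than in VCaP. Other members went the other way: INSM1 stood at 3.67 in VCaP and 1.41 in VCaP-CR (0.079), and DLL3 at 5.12 and 1.34 (0.61). ENO2, a neuronal enolase, stood at 3.62 and 2.94, within the range of the others. CHGB did not pass with limma (0.070) or against the LNCaP lineage alone (0.052).

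Junction genes gave 2 higher and none lower of 21 tested, against 1.94% and 0.591% of all tested genes: PKP1, a plakophilin of desmosomes, at 19.3 and 12.6 against 0.245 to 0.549 (adjusted p = 0.0060), and DSC3, a desmocollin, at 7.65 and 8.24 against 0.221 to 0.898 (0.036). Both reached the expression filter through the VCaP libraries alone, so the count partly follows from the filter, and another 16 members did not reach it. The list median was -0.09, with 8 of the 21 above 0 and 13 below. Of 24 tested p53 targets none was higher and 1 lower, against the same shares: ZMAT3, an RNA-binding protein, at 0.864 and 1.16 against 3.38 to 4.44 (0.043; 0.050 with limma). None of 16 HOX, 14 luminal, 5 basal, 7 mesenchymal, 20 interferon, 15 antigen presentation or 38 proliferation genes tested passed in either direction. In the mesenchymal list all 7 were below 0, with a median of -0.87, but another 20 members did not reach the filter. Tested members such as CDH2 and FN1 reached it through libraries outside the VCaP lineage, so their direction partly follows from the filter. In the proliferation list 27 of 38 were above 0, with a median of 0.26. In the luminal list 10 of 14 were below 0, with a median of -0.43. Of 12 fibroblast and muscle markers 1 reached the filter, LUM, a matrix proteoglycan, at 4.12 in VCaP and 52.4 in VCaP-CR against 0.186 to 1.01 (0.058). COL1A1, COL3A1 and PDGFRB stayed at 12 to 40 counts in the VCaP libraries.

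The VCaP difference was next compared between the sensitive and the resistant state. No gene passed the edgeR test of that interaction (0.00% of 11337), 108 had an unadjusted p under 0.05, and DESeq2 gave 14. The 5 genes with the smallest p were PI15, FAM133A, ID1, TMEFF2 and CRISPLD1, all with an adjusted p near 1.00. PI15, a secreted protein of the CAP family, stood at 41.8 in VCaP-CR and at 0.168 to 0.356 in the other 5 libraries, and CRISPLD1, its neighbour on chromosome 8, at 25.2 in VCaP-CR, 1.55 in VCaP and 0.211 to 0.581 elsewhere. FAM133A stood at 15.2 in VCaP-CR and at most 0.483 elsewhere. ID1, an inhibitor of helix-loop-helix factors, stood at 35.0 in VCaP against 4.73 and 3.69 in LNCaP and LAPC4, and at 23.2 in VCaP-CR against 112 and 110 in their derivatives.

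By chromosome, the largest shift of the median was on chromosome 16. On chromosome 16 the median difference of 544 tested genes was -0.60, with 38 identity genes lower (6.99%, against 1.72% of all tested) and 10 higher. On chromosome 11, 46 of 627 genes kept identity as higher (7.34%, against 3.54%), and on chromosome 13, 13 of 191 (6.81%). Windows of 15 neighbouring tested genes whose median difference was 2-fold or more in the same direction in both states were joined into stretches, a rule set after the data were seen. They gave 6 higher and 5 lower stretches in the VCaP lineage, against 3 and 0 in the LNCaP lineage and 4 and 3 in the LAPC4 lineage. The rule chose the stretches by the VCaP difference itself, so genes that passed on it are given below as a description.

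The stretch on chromosome 11 ran for 2.15 Mb from TMEM179B to PPP2R5B (chr11:62311463-64458523, hg18) and held 38 tested genes. Of these 12 passed as higher, against 1.94% of all tested genes, in a stretch chosen by the same difference. RTN3, which shapes the endoplasmic reticulum, stood at 170 and 266 in the VCaP libraries and at 30.8 to 59.6 in the others. TRMT112, a partner of methyltransferases, stood at 259 and 286 against 36.6 to 54.6. On chromosome 13 (chr13:99539270-113155840) 7 of 26 genes passed as higher, against the same share and in a stretch chosen the same way. Among them were ANKRD10 at 80.1 and 63.7 against 2.35 to 4.84 and ING1, a chromatin reader, at 18.7 and 23.99 against 1.15 to 2.02. The IRS2 gene described above lies here as well. In the LAPC4 lineage the same 26 genes formed a stretch that was lower, with medians of -0.88 and -1.12.

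On chromosome 19 a run of 19 genes (chr19:55965670-57366708), chosen by the same difference, held 9 that passed as higher, against 1.94% of all tested genes. They included KLK2 and 6 zinc finger genes, such as ZNF614 at 63.9 and 43.1 against 4.23 to 9.57 and ZNF577 at 21.8 and 11.3 against 0.900 to 1.94. On chromosome 9 the stretch held PTGR1, a prostaglandin reductase, at 65.7 and 53.1 against 7.44 to 10.3, and TXN, thioredoxin, at 312 and 303 against 57.7 to 112. Lower stretches included 21 genes of chromosome 1, with GUK1, guanylate kinase, at 5.49 and 5.36 against 26.3 to 41.7 and ARF1, a GTPase of vesicle traffic, at 46.6 and 45.1 against 155 to 272. The X chromosome held a lower stretch around the MAGEA genes and another of 21 genes from PLP2 to FAM156B, in which none passed and the medians were -1.09 and -1.57. Parts of these regions were also stretches in another lineage in the opposite direction. The chromosome 9 region was lower in the LAPC4 lineage (-0.86 and -0.73), the region ending at FAM156B was higher in the LNCaP lineage (0.65 and 1.23), and the MAGEA region was higher in the LNCaP (0.20 and 1.39) and LAPC4 (0.73 and 0.88) lineages. The 3 lineages' differences are taken from the same 6 libraries and are not independent. DNA copy number was not measured in these files, and its part in these runs was not tested.

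**Figure D4:**
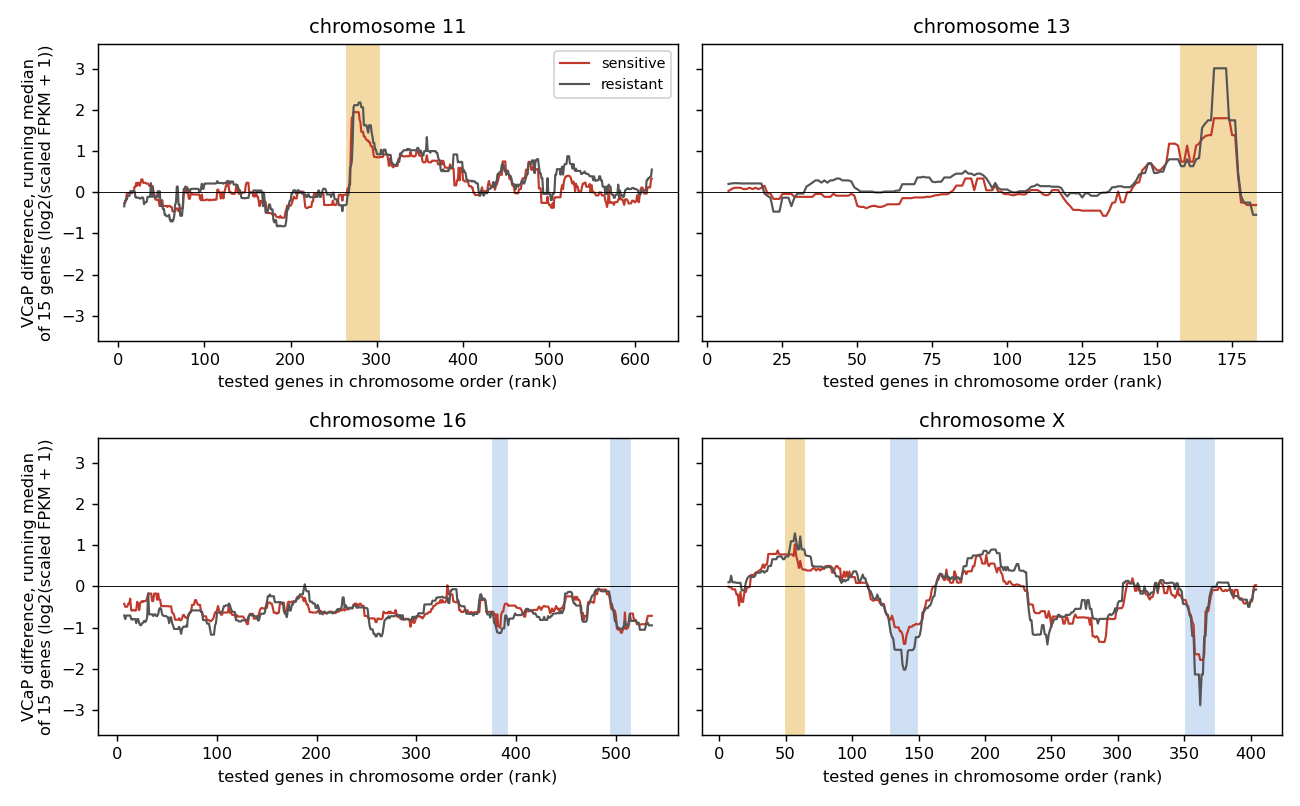
Running median of the VCaP difference over 15 neighbouring tested genes, in log2(scaled FPKM + 1), against gene order on chromosomes 11, 13, 16 and X, in the sensitive (red) and resistant (grey) libraries; shading marks higher (tan) and lower (blue) stretches, and both curves stay mostly below 0 along chromosome 16.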

How the data were processed

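Total RNA of 6 cell lines was purified with RNeasy and made into SOLiD Total RNA-Seq libraries, per the labels' protocols. The submitters' processing notes name HTSeq and hg18 without their roles. The sources used here name no aligner, annotation or strand setting, so overlapping and near-identical genes are uncertain. The deposited tables give whole-number counts per gene and FPKM; the deposited FPKM was the count divided by gene length and the table's total, within 1% for all values of at least 0.1. Gene symbols turned into dates (25) were restored by gene ID.

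Counts of the 11337 protein-coding genes averaging 1 scaled FPKM or more were tested in edgeR 4.0.16 (TMM, quasi-likelihood, state plus lineage). FPKM was scaled by the median ratio over 8682 genes; SE is the log2 difference over the root of F. DESeq2 1.42.0 and limma 3.58.1 (R 4.3.3) were alternatives. The code was tested on simulated data. Fewer counts give less precision, and totals ran from 8661337 to 22433655. The named genes are the 12 higher and 12 lower with the smallest p that kept identity, a fixed set of prostate genes, up to 4 members per list and direction that passed, and the 5 smallest interaction p. Some genes under these rules are not reported here. Members, lists and rules were chosen with earlier results of these data known. The labels give no replicate numbers. The cell line names tie each resistant line to its parent, and the main fit did not use this tie within the LNCaP and LAPC4 lineages.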

Additional observations from a re-analysis of the deposited data

Results flagged for a closer look

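For 2 named genes the VCaP library was at least 2-fold beyond both other lines in 1 direction among the sensitive lines and in the other direction among the resistant lines; with 1 library per line the reversal itself passed no test. The VCaP difference of TMPRSS2 was 3.94 higher in the resistant than in the sensitive libraries on the log2(scaled FPKM + 1) scale, and that of ID1 was -5.001. The sensitive VCaP culture was in DMEM and the others in RPMI, and the part of the medium was not tested.

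Rows outside the protein-coding class held transcripts that were high in the VCaP libraries and lower elsewhere. TRGV9, a T cell receptor gamma segment on chromosome 7, reached 169 scaled FPKM in the parental line and 254 in its derivative, with at most 1.02 elsewhere. TRGC2 stood at 63.1 in VCaP and 19.0 in VCaP-CR, and TRGC1 at 65.5 and 19.2, with at most 2.06 in the other 4 libraries for each; both were lower in VCaP-CR than in VCaP, and TRGV9 was not. This locus is known to give the TARP transcript in prostate epithelium. ANKRD10-IT1, inside the chromosome 13 stretch, stood at 33.4 and 24.9 in the VCaP libraries and at most 1.02 elsewhere. The pseudogene RP11-280K24.6 stood at 142 and 158, with 8.45 in LAPC4, 7.28 in LAPC4-CR and at most 0.389 in the LNCaP lineage. Of 5520 such rows of at least 200 bases, 238 kept identity as higher and 19 as lower. Among the 11337 protein-coding genes tested the counts were 401 (3.54%) and 195 (1.72%). The scaling used protein-coding genes only, and their share of the counts was lowest in VCaP at 62.8%. The part of the scaling in these counts was not tested.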

How the results depend on the processing

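The number of genes past 5% differed between tests, and the cause was not tested. Against 220 higher and 67 lower, DESeq2 gave 809 and 816, 3 lineage levels 802 and 525, the LNCaP lineage alone 511 and 291, the LAPC4 lineage alone 1047 and 960, no state covariate 122 lower, and limma 104 lower. All 220 and 67 genes also passed with DESeq2 and with 3 lineage levels, and 203 and 62 with limma. Leaving out 1 library gave 0 to 128 higher and 0 to 30 lower; the 0 came without VCaP and without VCaP-CR, where the lone VCaP library is assumed to vary like the others. The 57 genes checked singly that passed kept their direction in all 15 alternatives. The interaction gave 14 genes with DESeq2. The identity counts of 401 and 195 became 176 and 58 with a pseudocount of 5, 246 and 467 on FPKM as deposited, 109 and 24 at 4-fold, 213 higher with a filter of 5, 927 higher over all gene classes and 339 lower with a pseudocount of 0.25; without 1 library they were 445 to 536 and 246 to 356. No identity count exists without a VCaP library. Signs turned for genes that did not pass, on the log2 scale: ETV1 (-1.51) was 0.12 against the LAPC4 lineage alone and -4.79 to 0.37 without 1 library, TMPRSS2 (0.60) was -0.57 with no state covariate, -0.10 against the LNCaP lineage alone and -1.66 to 2.03 without 1 library, KLK3 (2.40) was -0.012 with no state covariate and -0.089 to 3.95 without 1 library, FOXA1 (0.25) was -0.041 against the LAPC4 lineage alone, HOXB13 (0.12) was -0.067 with all gene classes, -0.56 against the LNCaP lineage alone and -0.31 to 2.11 without 1 library, UGT2B15 (-0.27) was 0.013 with limma, 1.14 against the LAPC4 lineage alone and -2.58 to 1.31 without 1 library, and UGT2B17 (-1.55) was 1.46 against the LAPC4 lineage alone and -6.47 to 0.72 without 1 library. FPKM as deposited lowered the median over all genes to -0.34, and the list medians shifted with it. Depth limits genes with few counts, such as MAGEA2 with 2 in each VCaP library. The cell line names tie each resistant line to its parent, and the fit with 3 lineage levels, above, is the one that uses this for all 3 lineages.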

Other observations

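Genes of the cytosolic ribosome, a family taken by symbol after the data were seen, were higher in the VCaP lineage in 7 of 86 tested and lower in none, against 1.94% and 0.591% of all genes. In 66 of the 86 both VCaP libraries were above all 4 others (18.1% of all genes), and the median difference was 0.96, with 0.74 in the sensitive and 1.18 in the resistant libraries. The family took 9.07% and 7.81% of the protein-coding counts in VCaP and VCaP-CR, and 6.30%, 4.06%, 5.95% and 3.93% in LNCaP, LNCaP-abl, LAPC4 and LAPC4-CR. RPS6, a subunit protein phosphorylated by growth signalling, stood at 1234 and 1028 scaled FPKM in the VCaP libraries and at 270 to 496 in the others, and RPL13A at 844 and 542 against 178 to 403. Many ribosomal protein genes have processed copies in the genome, so the values of single members are uncertain. Of 67 tested replication-dependent histone genes 1 was higher, HIST1H3F, and 1 lower, HIST1H1B.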
